A study of Mus musculus with 18 samples.

Results

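Tlr4-mutant tumours were compared with wild-type (WT) tumours in a mouse model of hepatocellular carcinoma. The comparison rests on 12 of the 18 oligonucleotide arrays of the study, 5 of mutant and 7 of WT tumours, which were chosen by genotype and strain as labelled. The mutant tumours came from male C3H/HeJ mice, whose Tlr4 carries P712H, and the WT tumours from male C3H/HeOuJ mice. All these mice received 100 mg/kg diethylnitrosamine, a liver carcinogen, in week 12 and 6 injections of 0.5 ml/kg carbon tetrachloride, a liver toxin, from week 13 to week 23. Lesions were dissected at 54 weeks of age. Beside them stand 3 tumours of C3H/HeOuJ mice given the same injections and, from week 10 on, 4 antibiotics in the drinking water: vancomycin at 500 mg/l and metronidazole, neomycin and ampicillin each at 1 g/l. The 3 normal livers came from untreated C3H/HeOuJ mice, 15 weeks old. Every mutant tumour is C3H/HeJ and every other sample is C3H/HeOuJ, so the Tlr4 mutation and other differences between these substrains cannot be told apart. No source used here says that the tumours of a group came from separate animals, and the p-values then measure only the spread between these samples.

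Toll-like receptor 4, encoded by Tlr4, binds lipopolysaccharide of gram-negative bacteria together with MD-2, the product of Ly96. LBP and CD14 bring the lipopolysaccharide to it, and the adaptors MyD88 and TRIF pass the signal on to NF-kappaB and interferon regulatory factors. In the liver the ligand arrives from the gut through the portal vein. Kupffer cells, stellate cells, endothelial cells and hepatocytes can respond to it. The C3H/HeJ change lies in the cytoplasmic signalling part of the receptor and makes these mice poorly responsive to lipopolysaccharide.

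Few genes passed the threshold between mutant and WT tumours, and they were of mixed function. A probe set is a group of short probes meant to read 1 transcript, though some match several genes. Tested were 16663 probe sets whose log2 signal exceeded 4 on at least 3 of the 18 arrays. Of these, 65 passed a limma adjusted p of 0.05 (0.39%), 23 higher (0.138%) and 42 lower (0.252%) in mutant tumours. By at least 2-fold, 13 were higher and 22 lower. The division into higher and lower depended on the scaling. It was 25 against 28 when arrays were centred on their median and 32 against 30 after quantile normalization. Of the 65, 58 belong to 51 genes, 16 higher and 35 lower, and 7 have several gene symbols or none. Mutant and WT tumours did not overlap for 58 of the 65. Because the 65 were chosen for a difference on these same arrays, that count follows largely from the choice. Over all tested probe sets the groups did not overlap for 317 (1.9%, with 0.774% higher and 1.13% lower). Before adjustment 2971 probe sets had a limma p under 0.05 (17.8%), so genes that did not pass are not shown to be equal.

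**Figure D1:**
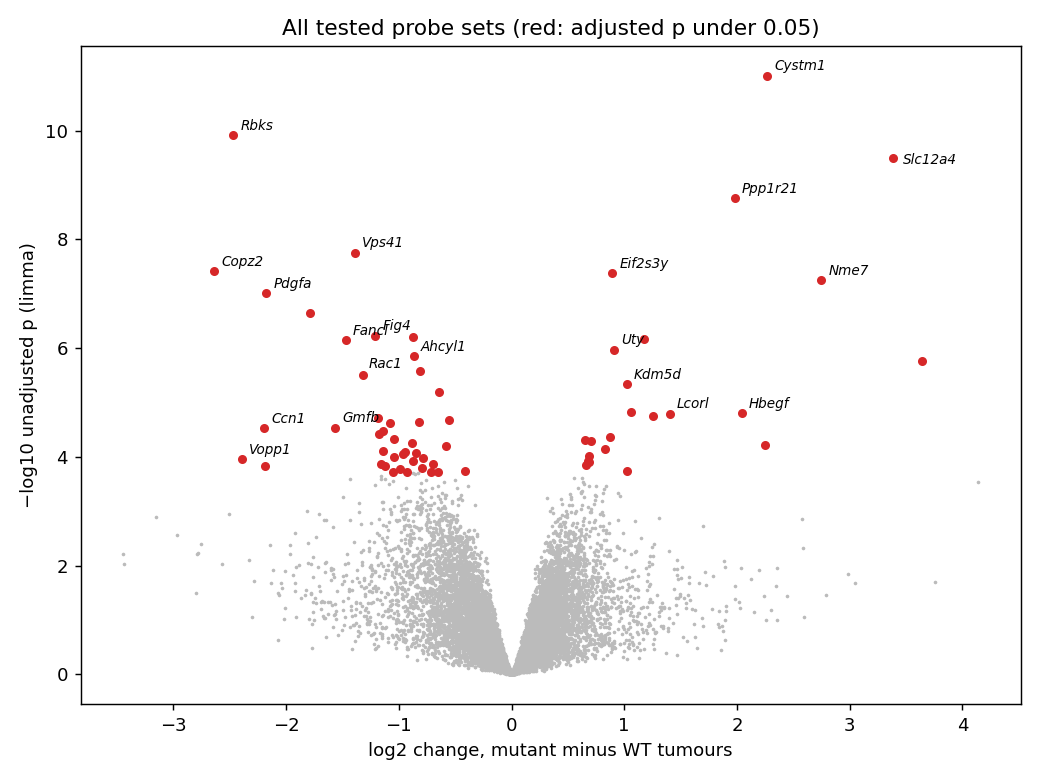
Each point is 1 of 16663 tested probe sets, with the log2 change (mutant minus WT tumours) on the horizontal axis and −log10 of limma's unadjusted p on the vertical axis. The 65 probe sets past an adjusted p of 0.05 are red, among them Cystm1 (2.27) and Nme7 (2.75) on the right and Copz2 (-2.64) and Pdgfa (-2.17) on the left.

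The arrays themselves were alike in level. Between 14617 and 15275 probe sets per tumour array exceeded log2 4, and the array medians lay between 6.73 and 6.85. The first principal component of the 12 tumours held 32.2% of the variance and had WT tumours 17 and 19 at one end (scores 82.8 and 77.3), away from all others (-43.6 to 12.5). The median SD of a probe set was 0.28 in mutant tumours and 0.32 in WT tumours, and 0.27 in WT tumours without those 2. The median SE of a change was 0.18 log2, and for 78.5% of probe sets the 95% interval of the change lay within 1 log2 unit of 0. Without WT tumours 17 and 19, 38 probe sets passed, and 27 of the 51 genes did not.

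The label of hepatocellular tissue was borne out by hepatocyte genes. Of 26 genes of hepatocyte function tested, 0 passed the threshold, and their mean level ran from 11.90 to 12.34 in mutant tumours and from 11.53 to 12.26 in WT tumours. Alb, which encodes serum albumin, was at 14.64 ± 0.05 (log2, SD, n = 5) in mutant and 14.56 ± 0.06 (n = 7) in WT tumours. Afp, the fetal albumin relative that liver tumours make again, was at 12.77 ± 0.63 and 13.66 ± 0.50, far above the 4.69 of normal liver. Its difference of -0.88 had a 95% interval from -2.54 to 0.78 (limma adjusted p = 0.572). The fit takes 1 spread from all 4 groups, and the antibiotic-treated tumours read 13.18, 12.42 and 6.63. That interval is therefore not one of mutant and WT tumours alone. The proteoglycan gene Gpc3, often switched on in liver tumours, differed by 0.29 (-1.47 to 2.05) and the proliferation gene Mki67 by -0.90 (-2.14 to 0.35). Neither passed (limma adjusted p = 0.883 and 0.433).

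Tlr4 itself could not be compared. Its 4 probe sets were below the filter, and the brightest read 3.22, 2.59, 2.52, 2.72 and 2.63 in mutant tumours against 2.63 to 3.82 (median 2.85) in WT tumours. The mutation replaces 1 residue, so the level of the transcript does not check the label. Of 17 genes of lipopolysaccharide sensing and Toll-like receptors on the array, 8 were tested and 0 passed, with a median change of -0.16 log2, where the median over all 9053 genes was 0.03. Ly96 differed by -0.21 (95% interval -0.90 to 0.47), Cd14 by 0.09 (-1.16 to 1.33) and Lbp by 0.40 (-0.86 to 1.65). The interval of Cd14 still holds differences of 1 log2 unit in either direction. The largest differences in the list were those of Tlr1, a partner of TLR2 (-0.71, -2.52 to 1.10), and Ly86, which encodes the secreted partner of the Toll-like protein RP105 (-0.61, -1.77 to 0.55).

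Downstream of the receptor, 0 of 21 adaptors and kinases and 0 of 21 NF-kappaB subunits and targets passed, with medians of 0.12 and 0.08. Myd88 differed by 0.05 (-0.33 to 0.44), a narrow interval. Irf5, a transcription factor activated by Toll-like receptors, differed by 0.47 (0.04 to 0.90) and Peli2, a ubiquitin ligase acting on IRAK kinases, by 0.43 (-0.12 to 0.98). Among NF-kappaB targets the chemokine genes Cxcl10 and Ccl5 had the largest differences, -0.97 (-2.18 to 0.24) and -0.88 (-2.48 to 0.72). Interferon-stimulated genes had a median of -0.26 with 23 of 28 negative, and 0 passed. Gbp6, a guanylate-binding protein, was at 8.0, 9.01, 4.93, 5.19 and 5.91 in mutant tumours and between 7.46 and 9.92 in WT tumours (limma adjusted p = 0.145). Oasl1, of the oligoadenylate synthetase family, differed by -1.15 (-1.85 to -0.45; limma adjusted p = 0.12).

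Secreted growth and matrix signals held 3 of the changed genes. HB-EGF, a ligand of the EGF receptor that is cut from the cell surface, is encoded by Hbegf, which was higher in mutant tumours. PDGF-A, a growth factor for mesenchymal cells such as stellate cells, is encoded by Pdgfa, which was lower. CCN1, a matrix protein that binds integrins and whose gene is an immediate early and YAP target, is encoded by Ccn1, which was also lower.

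Hbegf read 6.45, 6.78, 6.65, 7.15 and 6.42 in the mutant tumours and 3.78 to 5.56 (median 4.80) in WT tumours. The groups did not overlap, and the 3 normal livers were lower still, at 2.95 on average. The change was 2.04 ± 0.34 log2 (SE; limma adjusted p = 0.0113), and the second Hbegf probe set rose by 2.25 ± 0.42 (limma adjusted p = 0.0256). Without mutant tumour 26 the adjusted p was 0.0526. Antibiotic-treated tumours were spread widely, at 3.93, 5.99 and 4.42.

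The other genes of the EGF receptor system did not pass. Of 24 on the array 19 were tested, with a median change of -0.08. Tgfa, a second ligand, was at 8.68 ± 0.28 in mutant and 9.13 ± 0.97 in WT tumours, a difference of -0.45 (95% interval -1.23 to 0.33). Btc, which encodes betacellulin, differed by -1.72 (-2.98 to -0.46; limma adjusted p = 0.168). The receptor gene Egfr differed by 0.07 (-0.78 to 0.91). Ereg, which encodes epiregulin, was below the filter, at 2.47 ± 0.25 in mutant and 2.53 ± 0.41 in WT tumours, and Areg was not analysed here. Genes that report output of the ERK kinases downstream of this receptor had a median of -0.39 (-0.21 without WT tumours 17 and 19), with 13 of 16 negative and 0 past the threshold. Ier3 had the largest difference among them (-1.61, -3.20 to -0.02), followed by the feedback inhibitor Spry2 (0.96, -0.86 to 2.78).

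Pdgfa was measured by 2 probe sets and fell in both. The first read 4.37, 4.40, 4.57, 4.87 and 4.85 in mutant tumours against 6.23 to 7.33 (median 6.88) in WT tumours, a change of -2.17 ± 0.24 (SE; limma adjusted p = 0.000183). The brighter one changed by -1.78 ± 0.21 (limma adjusted p = 0.000371). In the first probe set all mutant tumours lay below all 13 C3H/HeOuJ arrays, whose lowest group, the normal livers, averaged 5.46. In the brighter one they overlapped the normal livers. Of the receptors, Pdgfra differed by 0.03 (-1.35 to 1.40) and Pdgfrb by -0.04 (-0.90 to 0.81). They were named after their values were seen. Among 11 tested members of the PDGF, VEGF and CCN families Pdgfa and Ccn1 were the 2 that passed, and 9 of the 11 changes were negative (median -0.29).

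Ccn1 read 4.16, 5.49, 4.34, 4.18 and 5.07 in mutant tumours and 5.87 to 8.20 (median 6.74) in WT tumours. Every mutant tumour was below every WT tumour, but normal liver, at 5.38 on average, lay within the mutant range. The change was -2.20 ± 0.39 (SE; limma adjusted p = 0.0162). A second probe set, dim in every mutant tumour, fell at least 1.75-fold (limma adjusted p = 0.0431), and the remaining 2 missed the threshold at -2.14 and -2.04 (limma adjusted p = 0.203 and 0.219). The call at 0.05 was lost without mutant tumour 23, 25 or 26, with the mean of the 4 probe sets and with the Gapdh covariate for RNA quality, where the limma adjusted p reached 0.14. Over all alternatives the change lay between -2.41 and -1.83.

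The promoter of Ccn1 is shown because TEAD factors, the partners of YAP, bind the letters GGAATG and Ccn1 is a standard target of theirs. These are the 250 bases before the start, from RefSeq on GRCm38.p6, chr3:145649986-145650235, minus strand, written 5′ to 3′ along the gene. The capitals mark the 1 match, on the opposite strand, at positions -103 to -98 from the start.
Ccn1: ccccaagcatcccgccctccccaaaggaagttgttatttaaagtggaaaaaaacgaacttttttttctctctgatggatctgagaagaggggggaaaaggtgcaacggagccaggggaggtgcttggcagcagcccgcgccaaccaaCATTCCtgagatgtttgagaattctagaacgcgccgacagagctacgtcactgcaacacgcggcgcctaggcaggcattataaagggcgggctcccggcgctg
The match is a description of these letters only. Promoters of 7410 tested genes were found, and 12.5% of them held the TEAD letters on either strand. So did 3 of the 13 matched genes that were higher (23.1%) and 4 of the 29 that were lower (13.8%). The AP-1 letters TGANTCA were in 5.53% of tested promoters and 0 of those 42, the NF-kappaB-like letters (GGG and CC with 5 free bases between) in 66.3%, against 61.5% of the higher and 58.6% of the lower genes, and the CArG box in 1.35%, with 1 match among the lower genes. The Ccn1 promoter shown held no match to these 3 motifs.

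Other YAP and TEAD targets did not pass. Of 21 tested, Ccn1 was the 1 that did, 13 had negative changes and the median was -0.24 (-0.35 without WT tumours 17 and 19). Ccn2, the closest relative, differed by -0.29 (-1.40 to 0.82), a value named after it was seen. Nt5e, a surface nucleotidase, differed by -1.73 (-3.46 to -0.01; limma adjusted p = 0.278). Ccn1 was also the 1 of 18 immediate early genes that passed. Their median was -0.35 (-0.13 without WT tumours 17 and 19) with 14 negative, and the stress-induced factor Atf3 was at -1.86 (-3.63 to -0.10; limma adjusted p = 0.257).

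**Figure D2:**
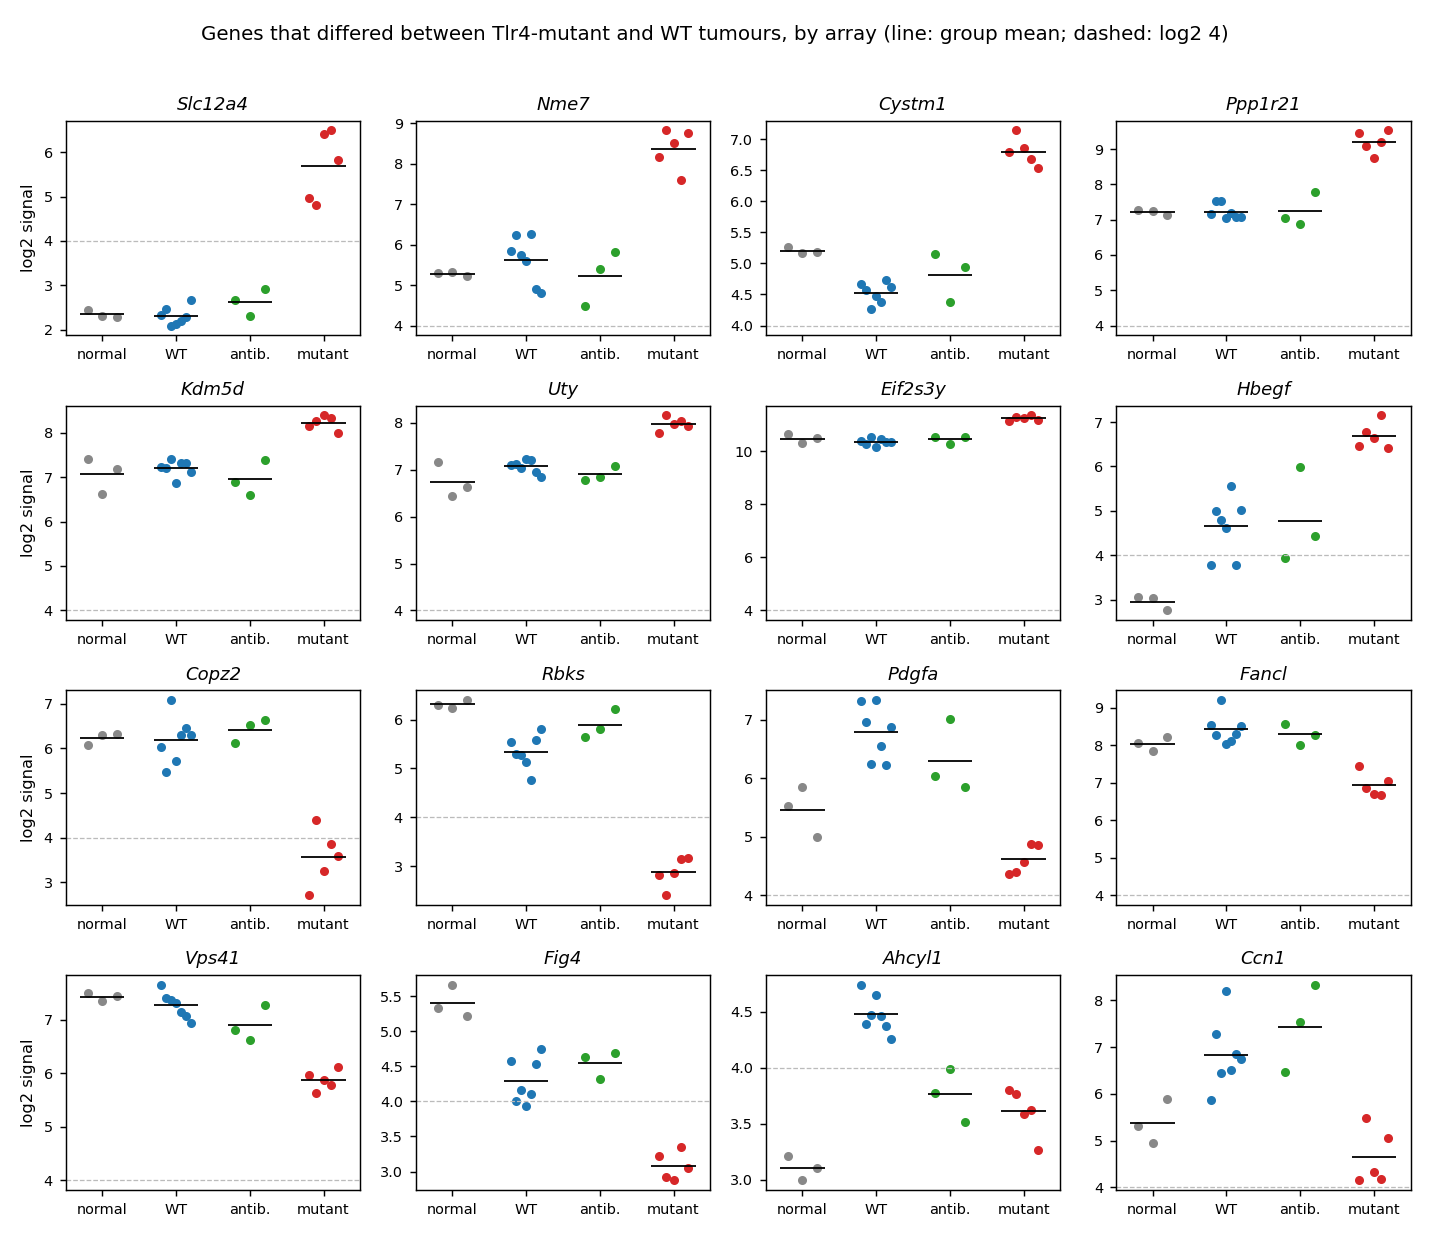
Log2 signal (vertical axes) of 16 genes on each array, by group: 3 normal livers, 7 WT tumours, 3 tumours of antibiotic-treated mice (antib.) and 5 mutant tumours; each point is an array, the line is the group mean and the dashed line marks log2 4. Shown are Hbegf, Ccn1 and the 14 genes that passed in every alternative of data or fit that tested them. In mutant tumours 8 were higher and 8 lower, and in all 16 the mutant and WT points do not overlap. Ahcyl1 is drawn from a probe set near background, and its brightest probe set had a change of 0.03.

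Further large changes were those of genes of membrane transport and vesicle traffic. The genes of this field were grouped after they had passed, so the grouping is no result. Slc12a4 encodes KCC1, which carries potassium and chloride out of cells and regulates their volume. It read 4.97, 4.80, 6.41, 6.49 and 5.82 in mutant tumours. In WT tumours it was between 2.10 and 2.68, and it was as low in antibiotic-treated tumours (2.63) and normal liver (2.35). A level below log2 4 is taken as not told apart from background, so the rise is given as at least 3.24-fold (limma adjusted p = 1.8e-06). No other array exceeded log2 4, so Slc12a4 entered the test through the mutant tumours alone, the group where it is high. None of the other 7 tested genes of the family and its kinases passed. Slc12a1, the kidney sodium-potassium-chloride carrier, differed by -1.02 (-2.87 to 0.83).

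Copz2 encodes the zeta-2 subunit of COPI, the coat of vesicles that return from the Golgi to the endoplasmic reticulum. It was at 2.71, 4.41, 3.26, 3.86 and 3.58 in mutant tumours and at 5.48 to 7.08 (median 6.30) in WT tumours. The change was -2.64 ± 0.28 (SE; limma adjusted p = 9.94e-05), and normal liver (6.23) and antibiotic-treated tumours (6.42) were at the WT level. The other 14 tested COPI genes did not pass. Copz1, the paralogue, differed by 0.15, a value named after it was seen, and Cope, the epsilon subunit, by 0.33 (0.06 to 0.59; limma adjusted p = 0.197).

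The RefSeq table places the gene of miR-152 inside Copz2, and its mature sequences are shown because the host transcript fell. The arrays did not measure the miRNA. Seeds, bases 2 to 8, are in capitals. The build of the table is GRCm38.p6.
mmu-miR-152-3p: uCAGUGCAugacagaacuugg
mmu-miR-152-5p: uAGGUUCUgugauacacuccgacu
Slc12a4 and Rbks also hold miRNA genes, named Mir7074 and Mir3473e.

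Ppp1r21 encodes a subunit of FERRY, a complex that ties mRNA to early endosomes. It was at 9.45, 9.09, 8.75, 9.20 and 9.53 in mutant tumours against 7.04 to 7.53 in WT tumours (change 1.98 ± 0.17, SE; limma adjusted p = 7.37e-06). The WT, antibiotic-treated and normal groups averaged 7.22, 7.24 and 7.22. The other 9 tested genes of the list made around this complex and early endosomes did not pass. Gatd3a, listed there but not taken here as a subunit of the complex, had the next largest difference (0.36, 0.02 to 0.69). Vps41, of the HOPS complex that fuses late endosomes with lysosomes, read 5.97, 5.62, 5.88, 5.78 and 6.11 against 6.93 to 7.65, a fall in 2 of its 3 probe sets (-1.39 ± 0.14 and -0.87 ± 0.11; limma adjusted p = 5.94e-05 and 0.000852). Fig4, a phosphatase acting on endosomal phosphoinositides, fell at least 1.23-fold (limma adjusted p = 0.000852). It stood at 3.22, 2.92, 2.88, 3.35 and 3.06 in mutant tumours, all below log2 4, and at 3.93 to 4.75 in WT tumours.

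Smaller changes in the same field were seen for Snx16, a sorting nexin of endosomes (-1.07), Cltb, a clathrin light chain (0.83), Xpr1, the phosphate exporter (0.71), and Zdhhc14, a palmitoyltransferase (0.66). Their limma adjusted p lay between 0.0138 and 0.0431. Cltb and Xpr1 lay above all 13 C3H/HeOuJ arrays in every mutant tumour. The call was lost in 16 of 22 alternatives for Zdhhc14, 12 of 25 for Cltb, 9 of 25 for Xpr1 and 5 of 25 for Snx16. Clip1 and Kif1b, which encode a microtubule tip protein and a kinesin, were lower by one probe set each (-1.18 and -1.04). The brightest probe sets of these 2 genes had changes of 0.17 and 0.28.

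Among enzymes, Rbks showed the second smallest p of all probe sets. Rbks encodes ribokinase, which phosphorylates ribose. It was at 2.82, 2.40, 2.85, 3.15 and 3.16 in mutant tumours, all below log2 4, and at 4.77 to 5.80 (median 5.31) in WT tumours. Normal liver was higher, at 6.32. The fall was at least 2.54-fold (limma adjusted p = 1.02e-06), and the second probe set fell as well (limma adjusted p = 0.00279). Of the other 12 tested genes of ribose and pentose phosphate metabolism 0 passed. Rpia, ribose phosphate isomerase, was nearest in size (-0.58, -1.23 to 0.08).

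Nme7, of the nucleoside diphosphate kinase family and found at centrosomes, read 8.17, 8.82, 8.52, 7.61 and 8.76 in mutant tumours and 4.81 to 6.26 in WT tumours. The change was 2.75 ± 0.29 (SE; limma adjusted p = 0.000117). All 6 tested nucleoside diphosphate and adenylate kinases had positive changes, and Nme7 was the 1 that passed. Ak4, a mitochondrial adenylate kinase, was at 1.07 (0.16 to 1.98; limma adjusted p = 0.216).

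Galt, of the pathway that turns galactose into glucose, was higher by 0.65 ± 0.12 (SE) and Hccs, the X-linked enzyme that attaches haem to cytochrome c, by 0.88 ± 0.16 (limma adjusted p = 0.0229 and 0.0211). Hccs varied little among the mutant tumours, from 8.97 to 9.10, and stayed at 7.99 to 8.42 in WT tumours. Even so it lost the call in 8 of 25 alternatives of data or fit, 6 of them with 1 tumour left out. Galt lost it in 6 of 25. Hacd1, an enzyme of very long chain fatty acid synthesis, fell by 0.94 ± 0.18 (limma adjusted p = 0.0313), a call lost in 14 of 24 alternatives. Alg11, a mannosyltransferase of N-glycan assembly, fell by 0.65 ± 0.10 in its dimmer probe set (limma adjusted p = 0.005). Its brighter probe set had a change of 0.02.

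Cystm1, a small cysteine-rich membrane protein of little-known function, had the smallest p of all. It read 6.79, 7.14, 6.86, 6.68 and 6.53 in mutant tumours and 4.27 to 4.73 in WT tumours, with antibiotic-treated tumours at 4.82 and normal liver at 5.21. The rise of 2.27 ± 0.14 (SE) had a 95% interval from 1.98 to 2.56 (limma adjusted p = 1.65e-07).

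Fancl encodes the ubiquitin ligase of the Fanconi anaemia DNA repair pathway. It was at 7.45, 6.86, 6.71, 6.67 and 7.05 in mutant tumours and 8.03 to 9.20 (median 8.30) in WT tumours (change -1.47 ± 0.19, SE; limma adjusted p = 0.000852). Most other genes of the pathway, 15 of 21 on the array, were below the filter, and of the 6 tested Fancl alone passed. Brca1 was at -0.34 (-0.97 to 0.29).

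In several signalling and cytoskeletal genes the probe sets differed. Rac1, the small GTPase that drives membrane ruffling, fell by 0.82 ± 0.12 (SE; limma adjusted p = 0.00248) in its brighter probe set, from a WT range of 10.40 to 10.97 to a mutant range of 9.71 to 10.03. The other Rac1 probe set had a change of 0.22 (limma adjusted p = 0.254). Ahcyl1, which encodes the IP3 receptor regulator IRBIT, fell in a probe set near background, by at least 1.39-fold. Its brightest probe set had a change of 0.03 (limma adjusted p = 0.909). Gmfb, a regulator of actin branching, fell by 1.56 ± 0.27 in one probe set, and the brightest had a change of -0.16. Lcorl, a nuclear receptor co-factor relative, rose in 2 of 4 probe sets (1.40 and 1.02), and the other 2 had changes of -0.67 and -0.15. Nudc, a partner of dynein, fell in both of its probe sets (-0.56 and -0.42).

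The 6 genes of chromatin and transcription regulation given here fell. They were grouped after their values were seen, so their common direction is no result. Higher genes of like function are given elsewhere, the histone demethylase genes Kdm5d and Uty with the Y-linked genes and Lcorl above. Bptf, of the NURF remodelling complex, changed by -1.17 ± 0.21 (SE), Arid4b, of the Sin3 repressor, by -1.16 ± 0.23, and Jade1, of the HBO1 acetyltransferase, by -1.14 ± 0.20. L3mbtl3, a reader of methylated lysine, was at least 1.10-fold lower, and Ctr9, of the PAF1 elongation complex, and Wac, an adaptor of histone ubiquitylation, changed by -0.96 and -0.69 (limma adjusted p from 0.0138 to 0.0415 for the 6). The call was lost in 18 of 24 alternatives for Wac, 17 of 24 for Arid4b and 15 of 23 for Ctr9. For Bptf, Jade1 and L3mbtl3 it was lost in 7, 5 and 4 of 23. In each of these 6 the brightest probe set of the gene did not pass, with changes from -0.46 to 0.04.

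That pattern ran through the genes that were lower. In 20 of the 35 the brightest tested probe set, which represents the gene in the list counts, did not pass. Among the 16 higher genes the same held for 3. A gene with 1 tested probe set cannot show this, and several were tested for 30 of the lower and 9 of the higher genes. Of 35 genes with further probe sets that did not pass, 27 had all of those on the same side as the probe set that passed and 8 had at least 1 on the other side. The part of probe position in these differences was not tested. Counted by the brightest probe set, 28 of 9053 genes passed (0.309%), 13 higher (0.144%) and 15 lower (0.166%), and groups did not overlap for 146 (1.61%). Of the 42 lower probe sets 22 had a WT mean under log2 6, against 4 of 23 higher ones with a mutant mean under 6. In 11 of the 42 every mutant tumour was below log2 4, and their falls are bounds, from at least 1.03-fold for Potegl to at least 2.54-fold for Rbks. For Heatr6, whose WT mean was also below log2 4, no fold is given. The probe sets of Ahcyl1, Zfp704, L3mbtl3 and Frk exceeded log2 4 on WT arrays only. They thus entered the test through the group where they were higher.

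**Figure D3:**
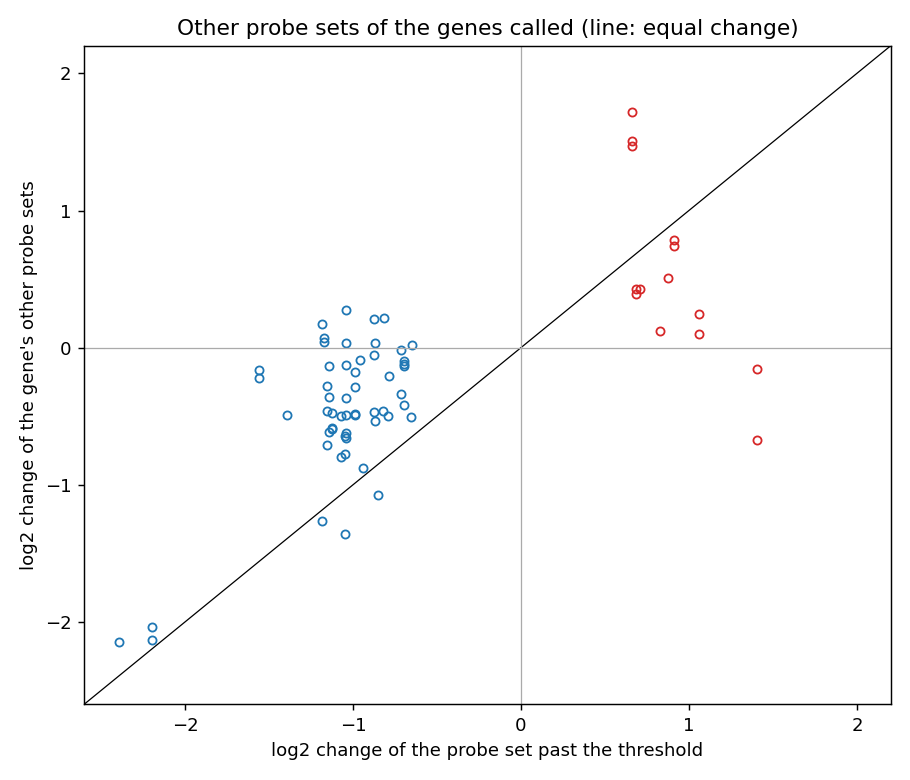
For 35 changed genes with further probe sets, the log2 change (mutant minus WT tumours) of the probe set with the smallest p is on the horizontal axis and that of each probe set that did not pass on the vertical axis; red marks genes higher and blue genes lower in mutant tumours, and the line marks equal change. Most points lie nearer to 0 than the line, as for Gmfb (-1.56 against -0.16 and -0.22), while Ccn1 (-2.20 against -2.14 and -2.04) and Vopp1 (-2.39 against -2.15) lie close to it.

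The remaining genes that fell were Frk, a tyrosine kinase, Pkn2, a serine-threonine kinase, Tpp2, a peptidase, Ranbp9, a scaffold protein, Fbxo30, Dcaf17, Heatr6, Btbd10, Lrrfip1, Zfp704, Potegl, Vopp1 and 1810013L24Rik. Vopp1 fell most, by 2.39 ± 0.47 (SE), from a WT range of 5.26 to 7.51 to a mutant range of 2.93 to 4.02 (limma adjusted p = 0.0377). WT tumours 17 and 19 read 7.51 and 6.86, and the other WT tumours 5.26 to 5.60. The call was lost without those 2, with the Gapdh or beta-actin covariate for RNA quality and in 9 of 12 runs with 1 tumour left out. Btbd10 lost it in 20 of 24 alternatives, and Frk and Heatr6 in 19 of 23. Pkn2, Tpp2, Ranbp9, Fbxo30, Dcaf17, Btbd10 and Lrrfip1 had changes between -1.12 and -0.65. Frk, Zfp704, Potegl, 1810013L24Rik and Heatr6 were below log2 4 in every mutant tumour, and Frk was at least 1.36-fold lower. The remaining rises were Tmem176a, a membrane protein (0.68), and Rpl7l1, a ribosomal protein relative (1.06), whose brightest probe set had a change of 0.24.

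Of the 7 probe sets without a single symbol 5 were higher and 2 lower. The probe set shared by Arpc1b, a subunit of the actin-branching Arp2/3 complex, and a predicted gene rose by 1.18 ± 0.15 (SE; limma adjusted p = 0.000852), from 8.995 in WT tumours to 10.17. An unnamed one had the largest change of any that passed, 3.64 ± 0.50 (limma adjusted p = 0.00171). Its WT mean was 3.23, and it entered the test through the mutant tumours.

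All 3 tested genes of the Y chromosome were higher in mutant tumours, though all mice were male. Eif2s3y, a translation initiation subunit, was at 11.15, 11.30, 11.24, 11.35 and 11.19 against 10.14 to 10.52 in WT tumours (0.89 ± 0.09, SE; limma adjusted p = 9.94e-05). Kdm5d and Uty, of the histone demethylase families, rose by 1.02 ± 0.15 and 0.91 ± 0.12 (limma adjusted p = 0.00386 and 0.0012). Each of the 3 lay above all 13 C3H/HeOuJ arrays. Of their X-linked partners, 6 tested, 0 passed. Kdm6a differed by -0.36 (-0.73 to 0.01) and Zfx by -0.24 (-0.51 to 0.02).

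A second set of C3H/HeOuJ tumours was available in the antibiotic-treated mice. Mutant tumours differed from them in 35 probe sets (0.21%), and of the 65 probe sets above 23 passed in this contrast too, 11 higher and 12 lower, each with the sign it had against WT tumours. Both contrasts use the same mutant arrays. Rbks, dim in the mutant tumours, was lower and Nme7 higher by 3.15 (limma adjusted p = 2.87e-06 and 0.000496). Pdgfa was lower by 1.69 (0.0235) and Ccn1 by 2.79 (0.0182). Hbegf did not pass there, at 1.91.

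Antibiotic-treated tumours differed from WT tumours in 92 probe sets (0.552%), and 11 of the 65 were among them, all lower in both. They were probe sets of Ahcyl1, Alg11, Clip1, Bptf, Kif1b, Ctr9, Arid4b, Frk and Ranbp9 and 2 unnamed ones. Bptf, for instance, averaged 3.73 in antibiotic-treated and 4.35 in mutant tumours against 5.53 in WT tumours. These 2 contrasts share the WT arrays. Without WT tumours 17 and 19, 7 of the 65 passed in the antibiotic contrast. For 30 of the 65 the mutant tumours were all above or all below the 13 C3H/HeOuJ arrays, against 48 of all probe sets tested (0.288%). The 13 include the WT arrays by which the 65 were chosen, so the 30 are no separate support.

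By count, chromosome 3 came first, with 6 changed of 472 tested genes (1.27%), and chromosome 5 next, with 5 of 597 (0.838%). By share, chromosomes 18 (1.24%), 13 (1.16%) and 10 (0.853%) were also above chromosome 5, and on Y all 3 tested genes had changed. Of all 9033 placed genes 51 had changed. Of the 94 nearest tested neighbours that did not pass, 2 had groups that did not overlap, and the median size of their change was 0.22, against 0.20 for all genes. Hbegf and Cystm1, both higher, are separated by 1 tested gene, Pfdn1, whose change was -0.20 (limma adjusted p = 0.449). Within 10 tested genes of another changed gene were 13 of the 51, the 3 Y-linked ones included, against 857 of all 9033 placed genes. The pairs Zfp704 and Snx16, Pkn2 and Ccn1, Ctr9 and Btbd10, and Arid4b and Vps41 were lower together, with 6, 6, 5 and 9 tested genes between them.

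The next genes in order of p whose groups did not overlap fell short of the threshold. Bhlhb9, an X-linked gene, had the largest difference of any tested probe set, 4.14 (95% interval 2.23 to 6.05; limma adjusted p = 0.0605), with 5.83, 7.84, 8.15, 9.20 and 7.14 in mutant tumours and 2.38 to 4.92 in WT tumours. The others with higher values were Gjb1, which encodes the hepatocyte gap junction protein connexin 32 (0.55), Tbcd, a tubulin folding factor (0.64), and Zfp771 (0.63). Lower values were those of Slmap (-0.83), Papola (-1.16), Cxadr (-1.12), Mia3 (-0.76), Mettl16 (-0.51) and Ppp4r3b (-1.08).

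No gene of the zonation and metabolism lists passed, and they are described by their medians. Periportal genes, which serve urea synthesis and gluconeogenesis near the portal vein, had positive changes in 16 of 18 cases (median 0.83), against 53.4% of all genes. Cyp2f2 was at 2.60 (-0.45 to 5.64) and Hal, a histidine-degrading enzyme, at 2.03 (-0.09 to 4.15). Without WT tumours 17 and 19 the median was 0.31. Wnt and pericentral genes, the opposite zone, were negative in 16 of 18 cases (median -0.61), and without those 2 tumours the median was 0.11. Slc13a3 was at -1.63 (-3.45 to 0.19) and Tbx3 at -1.44 (-3.35 to 0.48). Without those 2 tumours Cyp2f2 was at 0.63, Hal at 0.40, Slc13a3 at -0.38 and Tbx3 at -0.13. The mean level of the pericentral list was 10.52 in WT tumour 17 and 10.99 in WT tumour 19, and between 7.08 and 9.13 in the other ten tumours.

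**Figure D4:**
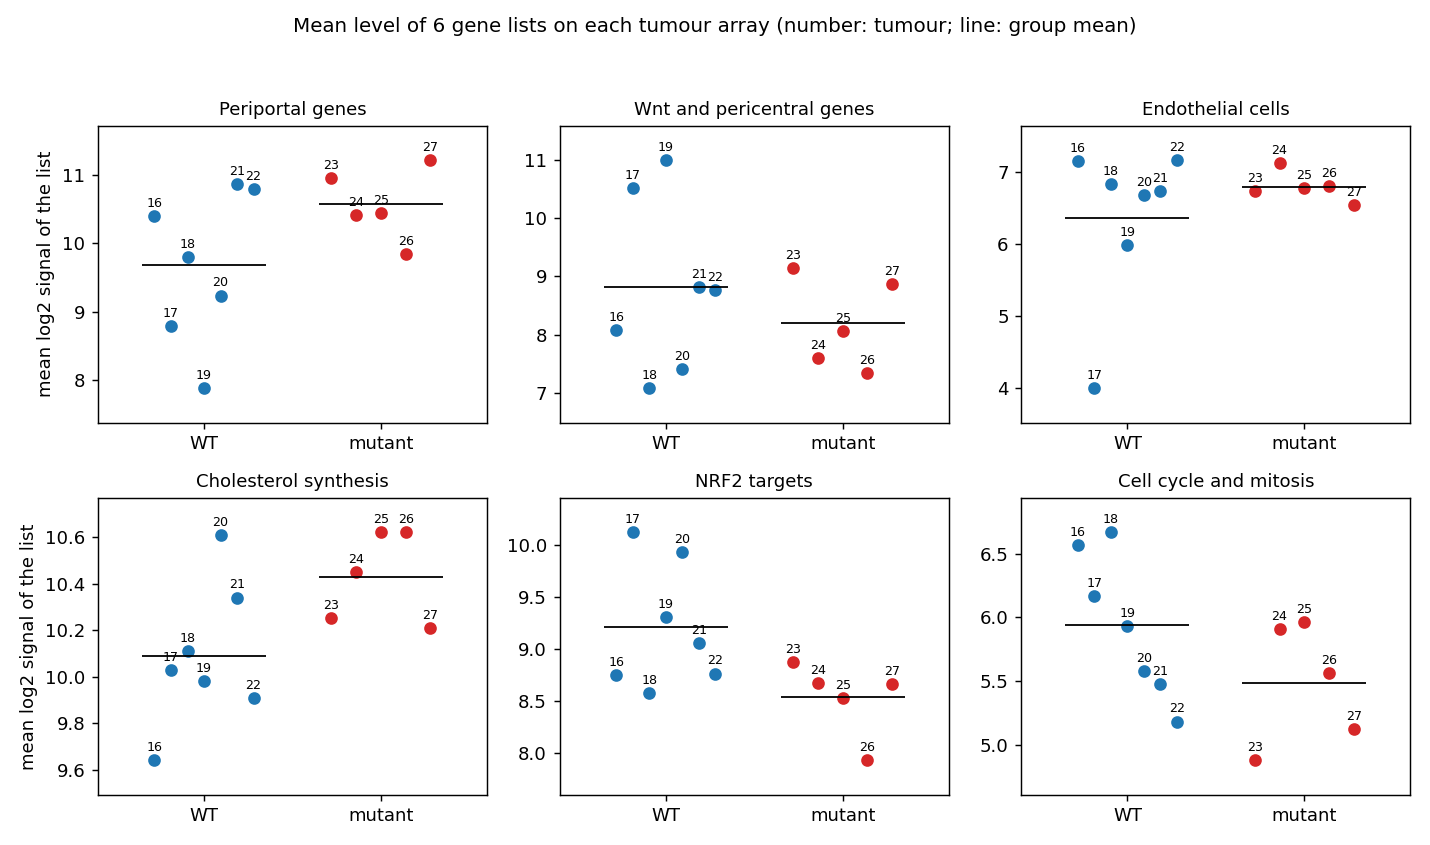
Mean log2 signal (vertical axes) of 6 gene lists on each of the 7 WT and 5 mutant tumours; points are tumours with their number and lines are group means. WT tumours 17 and 19 are highest for Wnt and pericentral genes (10.52 and 10.99) and lowest for periportal genes (8.79 and 7.88), and WT tumour 17 is lowest for endothelial genes (3.996).

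Cholesterol synthesis genes were positive in 20 of 21 cases (median 0.35; 0.28 without WT tumours 17 and 19). The largest were the mevalonate enzymes Mvk (0.82, 0.27 to 1.38) and Mvd (0.79, 0.01 to 1.57). NRF2 targets, which serve defence against oxidants, were negative in 27 of 31 cases (median -0.47; -0.30 without the 2 tumours). The exporter Abcc4 was at -2.76 (-4.50 to -1.01; limma adjusted p = 0.13) and the cystine carrier Slc7a11 was dim in the mutant tumours. Acute phase proteins were positive in 24 of 29 (median 0.37), with the iron hormone gene Hamp at 3.05 (0.53 to 5.56; 1.34 without the 2 tumours), whose WT tumours ranged from 2.84 to 12.07, while A2m was dim in the mutant tumours. None of the tested genes of these 3 lists passed, and for Slc7a11 and A2m mutant and WT tumours overlapped.

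Bile acid genes (median 0.32), cytochrome P450 and conjugation genes (0.17) and fatty acid synthesis genes (0.11) held no gene past the threshold either. Without WT tumours 17 and 19 these medians were 0.16, 0.14 and -0.020. Cyp7a1, whose product starts bile acid synthesis and limits its rate, differed by 0.35 (-1.94 to 2.64) and Cyp8b1 by 1.70 (-0.57 to 3.96). The level of male-biased liver genes ran from 6.60 to 9.73 in mutant and from 6.72 to 10.09 in WT tumours, with Elovl3 at 10.68, 7.85, 5.08, 2.22 and 5.99 in mutant tumours. PPARalpha targets (0.02) and clock genes (0.05) had medians near that of all genes.

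The medians of the cell state lists were negative, with no gene past the threshold. Hypoxia genes had a median of -0.41 (16 of 20 negative; -0.09 without WT tumours 17 and 19), with Egln3 at -2.28 (-4.15 to -0.42). Cell cycle genes were at -0.30 (22 of 28 negative), with Ect2 at -1.92 (-3.06 to -0.78; limma adjusted p = 0.115) and Birc5 at -1.44. Apoptosis regulators and p53 targets were at -0.16, with Phlda3 at -1.94 (-3.45 to -0.43) and Eda2r dim in the mutant tumours. Oncofetal and tumour markers were at -0.29 (-0.11 without WT tumours 17 and 19). Their largest difference was that of Lgals3, galectin 3, at 7.05, 7.31, 4.31, 6.13 and 5.77 in mutant tumours and 8.02 to 10.67 in WT tumours (-3.16, -4.88 to -1.44; limma adjusted p = 0.0972), groups that did not overlap. Stress response and serine synthesis genes were at -0.25.

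**Figure D5:**
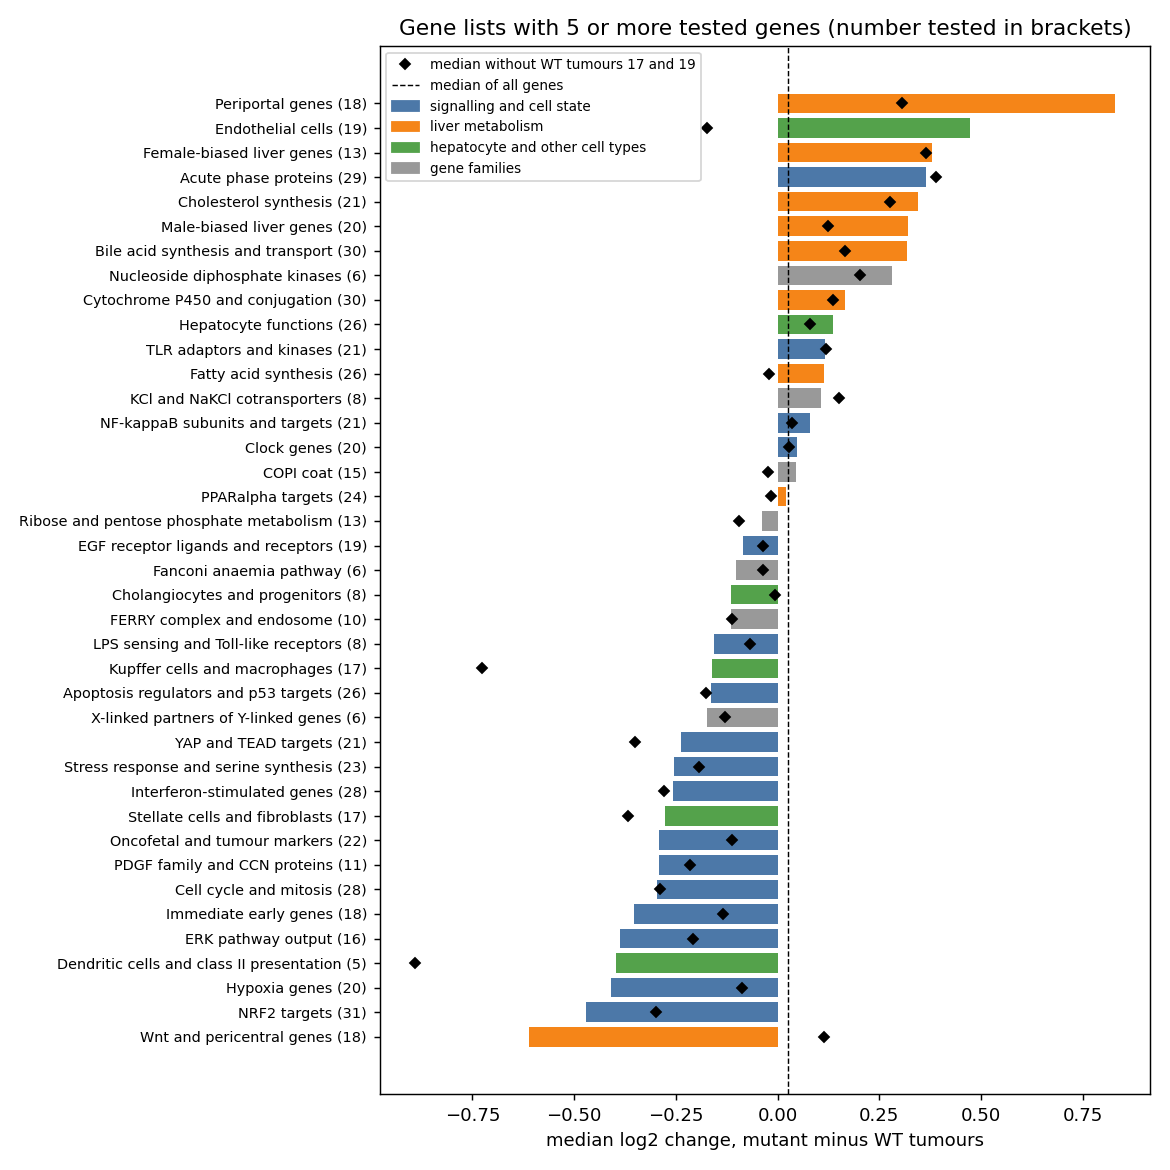
Median log2 change (mutant minus WT tumours, horizontal axis) of each gene list with 5 or more tested genes; bars are all 12 tumours, coloured by kind of list, diamonds the median without WT tumours 17 and 19, and the dashed line the median of all genes (0.03). Bars run from 0.83 for periportal to -0.61 for Wnt and pericentral genes, and the diamonds of the Wnt and pericentral (0.11), endothelial (-0.17), fatty acid synthesis (-0.020), PPARalpha target (-0.016) and COPI coat (-0.024) lists lie on the other side of 0 from their bars.

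No marker of another cell type passed. In bulk tumour RNA, fewer cells of a type and less RNA per cell cannot be told apart. Kupffer cell and macrophage markers had a median of -0.16 over 17 tested of 21 on the array (-0.73 without WT tumours 17 and 19), with levels of 6.91 to 8.81 in mutant and 6.24 to 8.95 in WT tumours. Cd68 was below log2 4 in every mutant tumour, though mutant and WT tumours overlapped. Vsig4 was at 1.25 (-1.12 to 3.62; -0.24 without those 2 tumours). Stellate cell and fibroblast markers were at -0.28 over 17 of 24, with Dcn at 1.02 (-0.21 without those 2 tumours) and Col1a2 at -0.79 (-2.01 to 0.44). The collagen gene Col1a1 was below the filter, at 2.50 ± 0.27 in mutant and 2.91 ± 0.47 in WT tumours. Endothelial markers were at 0.47 over 19 of 24, a median that turned to -0.17 without WT tumours 17 and 19, and their level was 3.996 in WT tumour 17 against 5.99 to 7.17 in the other WT and 6.54 to 7.13 in the mutant tumours.

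Of 16 markers of T and NK cells on the array 1 was above the filter, and of 12 neutrophil markers 2 were, S100a8 (1.90, 0.50 to 3.29) and S100a9 (1.89, 0.56 to 3.22; limma adjusted p = 0.168 and 0.162). Of 12 B and plasma cell markers 3 were tested, with Igha at 2.35 (0.35 to 4.34; limma adjusted p = 0.216) and Jchain at 1.98, or 1.16 and 0.98 without WT tumours 17 and 19. Dendritic cell and class II genes were at -0.40 (-0.89 without WT tumours 17 and 19) over 5 of 13, cholangiocyte and progenitor markers at -0.11 over 8 of 13, erythroid at 0.20 over 2 of 6 and adipocyte at 0.03 over 4 of 9. The 1 tested pancreatic acinar marker, Cela1, was at 0.05 (-0.80 to 0.90). The part of cell makeup in the changes of single genes such as Pdgfa and Ccn1 was not tested.

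RNA quality was read from control transcripts with probe sets at both ends. The 3′ signal exceeded the 5′ signal more in mutant than in WT tumours for Gapdh (0.66 ± 0.24 against 0.42 ± 0.15, SD, n = 5 and 7; two-sided exact permutation p = 0.0467, adjusted over 4 transcripts 0.0934). The differences were 0.10 for beta-actin (exact permutation p = 0.552), 0.14 for the transferrin receptor (0.115) and 1.08 for pyruvate carboxylase (0.0126, adjusted 0.0505). The 5′ probe sets of the latter pair were near background, at 2.09 and 3.81 on average. The smallest p that the 792 splits allow is 0.00126. With the Gapdh difference as a covariate 35 of the 51 genes no longer passed, and with that of beta-actin 16. The 14 genes drawn beside Hbegf and Ccn1 in the plot of values by array passed under both covariates. They also passed in every other alternative of data or fit in which they were tested. The stricter thresholds were not counted among these, and Eif2s3y, Uty and Ahcyl1 changed by less than 2-fold. Ahcyl1 was judged in 23 alternatives by a probe set near background, and its brightest probe set had a change of 0.03.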

How the data were processed

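Total RNA of 18 samples of liver or tumour had been amplified and hybridised to 3′ expression arrays, 1 per sample. The deposited values are log2 signals per probe set that the authors made with GCRMA, which corrects background and normalizes between arrays, per the submitters' processing notes (version not given). Among 45101 probe sets are 64 controls. A single gene symbol is listed for 34958, more than 1 for 932 and none for 9160. Entrez identifiers of 34754 were found in a RefSeq gene table (GRCm38.p6), where 0 symbols changed.

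Probe sets above log2 4 on at least 3 arrays were tested (16663). Group differences came from 1 limma fit (version 3.58.1, R 4.3.3) of 4 group means over the 18 arrays, two-sided, with Benjamini-Hochberg adjustment over all tested probe sets. For lists, each of 9053 genes was represented by its tested probe set of highest mean. Where all arrays of a group lay below log2 4 it was called dim, and the fold was then computed against log2 4. Control differences were compared by exact permutation. The procedure was tested on simulated data. Arrays have no read depth. Their number limits the precision.

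The members and the 46 gene lists were chosen with earlier results of these data known. Named were all genes past the threshold with their nearest tested neighbours where a result turned on them, the next 10 whose groups did not overlap, 2 members of each list and 16 fixed genes. The closing section gives the alternatives. Plots used matplotlib 3.10.9 under python 3.11.15.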

Additional observations from a re-analysis of the deposited data

Results flagged for a closer look

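In the genes that passed and the 16 fixed genes, 130 groups of 5 or 7 tumours were searched for a single tumour far from the rest of its group. Chance gives about 1 in 20, and 5 were found. Fancl was 9.20 in WT tumour 18, with the other WT tumours at 8.03 to 8.52. Alg11 was 5.03 in WT tumour 22, below the others at 5.31 to 5.46. Kif1b was 4.12 in mutant tumour 23, above the others at 3.35 to 3.51. Ereg was 2.92 in mutant tumour 24 (others 2.32 to 2.39) and 3.43 in WT tumour 16 (others 2.28 to 2.56), all below the filter.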

How the results depend on the processing

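The 65 probe sets became 64 without a filter, 41 with a filter at log2 6, 24 with 1 probe set per gene, 23 with a mean over probe sets, 121 with array weights, 27 with the Gapdh difference as a covariate (added after seeing the data), 38 without WT tumours 17 and 19, 21 at an adjusted p under 0.01, 35 at 2-fold or more and 26 to 120 when 1 tumour was left out. The stricter settings test fewer features or ask for more; for array weights, the covariate and left-out tumours the cause was not tested. With only mutant and WT tumours fitted, 45 probe sets passed. The 28 genes became 47, 15, 18, 14 and 15 with weights, the Gapdh covariate, without tumours 17 and 19, at 0.01 and at 2-fold, and 16 to 52 with 1 tumour left out. Groups that did not overlap numbered 317, and 496 without tumours 17 and 19 and 351 to 640 with 1 tumour left out, where fewer tumours overlap less. They divided into 129 higher and 188 lower, 257 and 111 with centred arrays and 207 and 132 after quantile normalization. Of the 65, 23 passed against antibiotic-treated tumours (13 with the Gapdh covariate), and 11 between antibiotic-treated and WT tumours (3 with weights, 7 without tumours 17 and 19, 7 to 12 with 1 left out). With 1 tumour left out the 3′ minus 5′ differences ran from 0.15 to 0.31 for Gapdh, -0.033 to 0.18 for beta-actin, 0.092 to 0.20 for the transferrin receptor and 0.91 to 1.26 for pyruvate carboxylase. Of the 51 genes 0 changed sign, 14 passed in all of up to 25 alternatives and 18 with any of the 12 tumours left out. Ahcyl1 is among the 14 by a probe set near background, tested in 23 of the 25. The settings at 0.01 and at 2-fold are not among these 25. Without tumours 17 and 19, 27 of the 51 did not pass. Named genes that had not passed changed sign as follows, and the cause was not tested. With the Gapdh covariate Usp2 was -0.86, Ccl5 0.067, Cd74 0.066, Mup10 -0.0007993, H2-Eb1 0.10, Alas2 -0.33, Ly96 0.16, Myd88 -0.020, Egfr -0.53 and Cyp7a1 -1.18. With weights Klf1 was -0.017, Alas2 -0.23, Cd14 -0.039 and Myd88 -0.15. With the beta-actin covariate Egfr was -0.11, and with the mean of probe sets Cyp7a1 was -0.16. Without tumours 17 and 19 Dcn was -0.21, Pdk4 0.40, Vsig4 -0.24, Clec4g -0.17, Ly96 0.051, Myd88 -0.11 and Tgfa 0.061. With 1 tumour left out Cela1 ran from -0.079 to 0.17, Alas2 from -0.17 to 0.41, Lbp from -0.026 to 0.78, Myd88 from -0.078 to 0.13, Cd14 from -0.22 to 0.28, Egfr from -0.20 to 0.42, Cyp7a1 from -0.23 to 0.88 and Gpc3 from -0.27 to 0.82. Centring and quantile normalization moved the median change of all probe sets by 0.04 and 0.03. No paired analysis was possible because the tumours of the 2 groups share no replicate number. A group dim on every array limits a fold to a bound.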
